A study of Arabidopsis thaliana with 18 samples.

Results

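The genes described here are 20 plant transcription factors measured in roots of Arabidopsis thaliana: 17 basic leucine zipper (bZIP) factors, 2 TCP factors and 1 NAC factor. They are the genes whose symbol in the platform's table of features and genes starts with BZIP, NAC, ANAC, MYB, HSFA, HSFB, GATA, TCP or SPL followed by a number, and whose feature (a set of probes with 1 summary value) is assigned to exactly 1 gene. The array holds 38408 features, of which 16722 were assigned to exactly 1 gene. The rule was written for bZIP, NAC, MYB and heat shock factors, but it found 0 MYB, 0 HSFA or HSFB, 0 GATA and 0 SPL genes among them, so those families were not analysed here. The current annotation (TAIR10.1) has 297 genes with such symbols, among them 30 named bZIP, 16 named TCP and 79 named NAC. The bZIP genes therefore carry the results, and TCP and NAC genes are single examples rather than families.

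The series has 18 arrays in 6 groups of 3, from seedlings 4 days old. In 4 groups root tips of the Col-0 background with the construct pRPS5A-TMO5-GR were collected 1 h after transfer to plain MS medium (root MS), to dexamethasone (root DEX), to cycloheximide (root CHX) or to both agents together (root DEX+CHX). The 2 remaining groups came from C24 plants carrying J0571>>pUAS-TMO5-GR, kept for 2 h on MS medium (J0571 control) or on dexamethasone (J0571 DEX); their roots were protoplasted and the cells with GFP collected by sorting. All 6 groups carry a TMO5-GR transgene, the controls included. TMO5 is a vascular basic helix-loop-helix factor, and its fusion to the glucocorticoid receptor (GR) enters the nucleus once dexamethasone (DEX) is present. The RPS5A promoter is known to be active in dividing cells, and J0571 is an enhancer trap known for ground tissue (cortex and endodermis). Cycloheximide (CHX) blocks protein synthesis. No group here received DEX without carrying a TMO5-GR transgene, so an effect of DEX itself and an effect of the fusion protein cannot be told apart.

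bZIP factors bind DNA as dimers through a basic region followed by a leucine zipper, and the dimer partners decide which target sites are read. In roots they are best known for responses to nutrients, sugar, salt and protein misfolding. Several are controlled after transcription: bZIP17 and bZIP28 sit in the membrane of the endoplasmic reticulum (ER) until they are cut loose in the Golgi, the bZIP60 mRNA is spliced in the cytoplasm by the enzyme IRE1, and translation of bZIP44 and bZIP53 is repressed by sucrose through a short upstream reading frame. A transcript level says nothing about these steps, and the array values do not separate spliced from unspliced bZIP60.

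The values were log2 signals as the authors deposited them, made with RMA, a method that corrects background, equalises the distributions of the arrays and combines the probes of a set. Arrays of the same group had correlations of 0.982 to 0.992 over the features; features are no replicates, so this only describes the data. Array medians lay between 4.76 and 4.87 in the root groups without CHX, between 4.61 and 4.65 in those with CHX, and between 4.50 and 4.58 in the J0571 groups. On the first principal component of the 6 J0571 arrays, which held 32.2% of the variance, J0571 control replicate 3 lay at 57.2 and the other 5 arrays between -33.7 and 10.08. Counts of called members that use this array are therefore also given without it, while values of single genes are given with it. The labels call the arrays of a group repeats and do not say whether they came from separate cultures, so the p-values measure the spread between these arrays, which may be technical. Because the samples are bulk RNA, fewer cells of a type and less RNA per cell cannot be told apart.

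The label of ground tissue was checked on marker genes. Of 12 ground tissue markers 2 had a single-gene feature. JKD, a zinc finger factor of the ground tissue, was higher in J0571 control than in root MS, by 0.87 log2 (SE 0.11), and AT1G62500, the cortex marker CO2, by 0.73 (SE 0.13), although its signal of 3.74 ± 0.23 (mean ± SD, n = 3) was below the array medians. EXPA7, an expansin of root hair cells and the 1 epidermal marker of 5 with a feature, was lower, with a log2 difference of -2.50 (SE 0.18), but still at 6.42 ± 0.17, above the array medians. Of 6 stele and phloem markers and 4 root cap markers, 0 had a single-gene feature. Of 10 genes for secondary walls and xylem 2 had one, and both were lower in J0571 control: AT5G51890 with a log2 difference of -2.97 (10.44 ± 0.08 in root MS and 7.47 ± 0.17 in J0571 control, n = 3 each) and GUT2, a xylan synthesis gene, with one of -1.28 (8.90 ± 0.18 and 7.62 ± 0.16). Of all features 26.5% were higher and 22.4% lower in J0571 control. The part of these tissue markers in the members' differences between J0571 cells and root tips was not tested.

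Signal levels placed the members in separate ranges. On all 18 arrays 13 members lay above the array median, 6 lay below it on every array (bZIP42, bZIP43, bZIP48, bZIP70, bZIP75 and TCP1), and TCP15 was above it on 4 arrays. bZIP53 had the highest mean signal over all arrays, 10.36, and exceeded 96.4% of features on an average array. TCP1 had the lowest, 2.08, and exceeded 7.31%. Signals of different probe sets do not rank transcripts by abundance, but they show how far a member was from the dim end of the array, where background contributes most. No member shared its values with another feature.

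**Figure D1:**
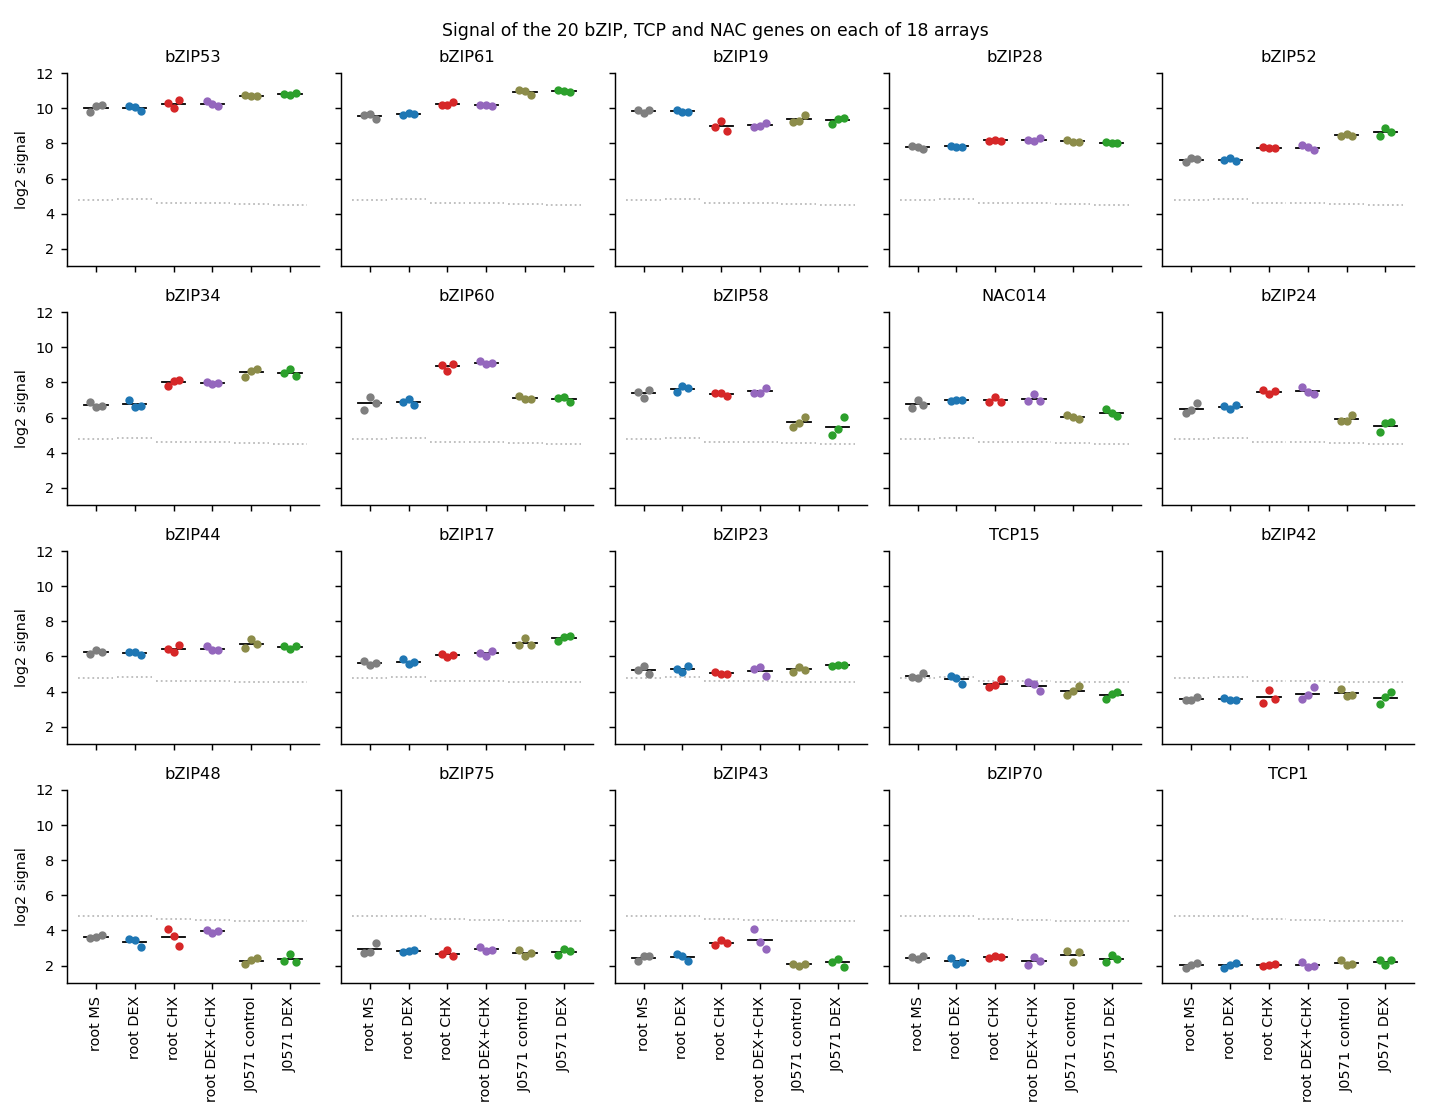
Log2 signal (y axis) of each of the 20 genes on every array, with the 6 groups along the x axis. Points are single arrays, black bars the group means of 3 arrays, and grey dotted lines the mean of the array medians in each group. bZIP60 stands at 8.67 to 9.21 on the 6 CHX arrays and at 6.43 to 7.24 on the other 12, while TCP1 stays between 1.87 and 2.34 on all 18.

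The comparisons of root tips with and without CHX show which of these transcripts changed within 1 h of blocked protein synthesis. They were made once without DEX (root CHX against root MS) and once with it (root DEX+CHX against root DEX), and these 2 comparisons share no arrays, although both use the spread estimated over all 12 root arrays. Without DEX 8 of the 20 members rose and 1 fell (limma, adjusted p under 0.05 over all 38408 features). In the same comparison 10.4% of all features rose, 19.7% fell and 30.1% were called in either direction. Among the 16559 genes named by a single-gene feature, the kind of feature all members have, 13.4% rose and 12.3% fell. With DEX 9 members rose and 1 fell, against 11.6% and 22.1% of all features, with 33.7% called in all, and against 15.2% and 13.9% of the named genes. The 8 genes that rose without DEX were all among the 9 that rose with it, and the gene that fell was the same, bZIP19. Such overlap was common, since 88.3% of the named genes that rose without DEX also rose with it. In percent, 40% and 45% of the members rose. An unadjusted p under 0.05 was found for 10 members in each comparison, against 40.8% and 42.7% of features. Arrays did not overlap for 8 members in the higher and 2 in the lower direction without DEX (14.5% and 30.2% of features), and for 11 and 1 with DEX (15.2% and 30.9%). All called members were bZIP genes: 8 of 17 rose without DEX and 9 of 17 with it.

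The median change of the members was 0.22 without DEX and 0.29 with DEX, where the median over all features was -0.13 in both comparisons and that over the named genes -0.05. Setting all arrays to the same median moved the median over all features to 0.04 and 0.08. Relative to the median feature of the deposited values, members changed by -0.74 (bZIP19) to 2.24 (bZIP60) without DEX. Among the 13 members above the array median on all arrays, 7 rose and 1 fell in each comparison, or 53.8% and 7.69%. Of all features 10.4% and 11.6% rose in these comparisons, and 19.7% and 22.1% fell. The share among features of like signal was not counted.

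**Figure D2:**
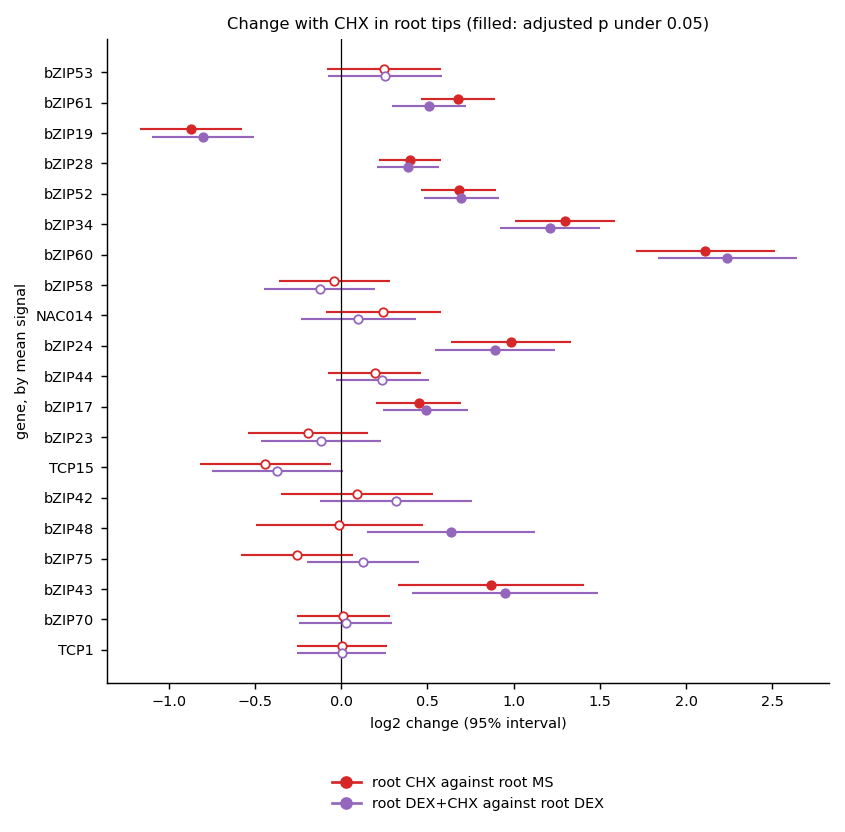
Log2 change with CHX (x axis) for each gene, ordered by mean signal from the top, with 95% intervals from limma; filled points passed an adjusted p of 0.05. bZIP60 lies farthest to the right in both comparisons, at 2.11 and 2.24, and bZIP19 farthest to the left, at -0.87 and -0.80.

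The 3 bZIP factors of the unfolded protein response, which switch on chaperone genes when proteins misfold in the ER, all rose with CHX. Of the named genes 13.4% rose without DEX and 15.2% with it. For bZIP60 (AT1G42990) the root MS arrays read 6.43, 7.16 and 6.83, the root DEX arrays 6.86, 7.07 and 6.70, the root CHX arrays 9.01, 8.67 and 9.06, and the root DEX+CHX arrays 9.21, 9.03 and 9.11. Each CHX array was above each array without CHX by a wide margin. The change was 2.11 without DEX (SE 0.18, limma adjusted p = 1.29e-05) and 2.24 with DEX (SE 0.18, adjusted p = 7.04e-06), or 4.32-fold and 4.72-fold. Of all features 1.41% had a higher change than bZIP60 without DEX.

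The membrane-anchored pair changed much less. bZIP17 (AT2G40950) read 5.71, 5.50 and 5.61 in root MS and 6.13, 5.97 and 6.07 in root CHX, with no overlap, a change of 0.45 (SE 0.11, limma adjusted p = 0.0119). With DEX it went from 5.86, 5.55 and 5.66 to 6.17, 6.04 and 6.33, a change of 0.49 (SE 0.11, adjusted p = 0.00643). bZIP28 (AT3G10800) had the smallest standard error of the called members. It read 7.86, 7.78 and 7.69 in root MS and 8.17, 8.22 and 8.13 in root CHX, a change of 0.40 (SE 0.08, adjusted p = 0.00419), and rose by 0.39 (SE 0.08, adjusted p = 0.00418) with DEX. The interaction of DEX and CHX for bZIP28 was -0.01 (SE 0.11).

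None of the listed targets with a feature rose with them. Of 13 genes on a list for the unfolded protein response 3 had a single-gene feature. CRT1b, a calreticulin chaperone of the ER, fell by 0.41 (SE 0.09, limma adjusted p = 0.00703) without DEX and by 0.51 (SE 0.09, adjusted p = 0.00177) with DEX. ATERDJ3B, a co-chaperone of the ER, had changes of -0.29 (SE 0.12, adjusted p = 0.0861) and -0.32 (SE 0.12, adjusted p = 0.0525), and BIP1, an HSP70-type chaperone of the ER, 0.03 (SE 0.22, adjusted p = 0.937) and -0.61 (SE 0.22, adjusted p = 0.0524). Neither of these 2 genes passed. BIP1 read 2.26 to 3.55 on the 12 root arrays, below the array medians, so the bright targets were CRT1b and ATERDJ3B. The summed signal of these 3 genes, as log2, was 9.97 to 10.22 over the root arrays without CHX and 9.56 to 9.79 over those with CHX. This sum mainly follows CRT1b, whose mean in root MS was 9.73, against 7.87 for ATERDJ3B and 2.73 for BIP1.

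Of the bZIP factors that sense zinc deficiency and switch on zinc transporter genes, bZIP19 (AT4G35040) fell. Its arrays read 9.91, 9.72 and 9.90 in root MS and 8.92, 9.26 and 8.73 in root CHX, and 9.90, 9.80 and 9.81 in root DEX against 8.91, 8.995 and 9.19 in root DEX+CHX. All 6 root arrays with CHX were below all 6 without. It fell by 0.87 (SE 0.13, limma adjusted p = 0.000746) without DEX and by 0.80 (SE 0.13, adjusted p = 0.00104) with DEX, and 9.13% of features had a lower change without DEX. Its close homolog bZIP23 (AT2G16770) read 5.21, 5.48 and 5.01 in root MS and 5.11, 5.03 and 4.98 in root CHX, with overlapping arrays. Its changes were -0.19 (95% interval -0.54 to 0.15) and -0.12 (95% interval -0.47 to 0.23), and the difference between both homologs was not tested. The third group F gene, bZIP24 (AT3G51960), known as a regulator of the salt response, moved the other way. It read 6.25, 6.42 and 6.82 in root MS and 7.57, 7.35 and 7.51 in root CHX, a rise of 0.98 (SE 0.16, adjusted p = 0.000977), and rose by 0.89 (SE 0.16, adjusted p = 0.00145) with DEX.

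Both members of bZIP group E, a class added after the results were seen, rose. In these comparisons 13.4% and 15.2% of the named genes rose. bZIP34 (AT2G42380), known for its part in pollen wall formation, read 6.88, 6.58 and 6.68 in root MS, 7.80, 8.07 and 8.16 in root CHX, 6.999, 6.61 and 6.68 in root DEX and 8.00, 7.93 and 7.99 in root DEX+CHX. The groups with and without CHX were separate, and the changes were 1.30 (SE 0.13, limma adjusted p = 4.29e-05) and 1.21 (SE 0.13, adjusted p = 5.98e-05). bZIP61 (AT3G58120), its closest relative, started from a much brighter signal. It read 9.62, 9.70 and 9.39 in root MS and 10.17, 10.19 and 10.36 in root CHX, a change of 0.67 (SE 0.10, adjusted p = 0.000504), and rose by 0.51 (SE 0.10, adjusted p = 0.00236) with DEX. bZIP52 (AT1G06850), a member of group I, went from 6.94, 7.15 and 7.13 in root MS to 7.82, 7.72 and 7.73 in root CHX, a change of 0.68 (SE 0.10, adjusted p = 0.000519), and rose by 0.70 (SE 0.10, adjusted p = 0.000359) with DEX. In each of these 3 genes every root array with CHX lay above every root array without it.

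Group S is the largest bZIP group and holds 8 of the members: bZIP44 and bZIP53, which take part in gene regulation under low energy, and bZIP42, bZIP43, bZIP48, bZIP58, bZIP70 and bZIP75. Of these 8, 1 rose without DEX and 2 with DEX, or 12.5% and 25%, where 13.4% and 15.2% of the named genes rose. bZIP43 (AT5G38800) read 2.24, 2.56 and 2.53 in root MS and 3.20, 3.46 and 3.27 in root CHX, a change of 0.87 (SE 0.24, limma adjusted p = 0.0215), and it rose by 0.95 (SE 0.24, adjusted p = 0.0121) with DEX. All of its arrays lay below the array medians, and the call without DEX was lost without root MS replicate 1 (0.0714), root CHX replicate 2 (adjusted p = 0.0701) or root CHX replicate 3 (0.0504). bZIP48 (AT2G04038), also dim, rose in the comparison with DEX, by 0.64 (SE 0.22, adjusted p = 0.0456). Its arrays there read 3.51, 3.44 and 3.03 without CHX and 4.03, 3.88 and 3.97 with it, but 3.56, 3.63 and 3.72 in root MS and 4.11, 3.67 and 3.09 in root CHX, a change of -0.01. The test of the difference of these 2 changes did not pass (0.65, SE 0.31, adjusted p = 0.999), and the call was lost in each of the 6 fits without 1 of the arrays compared (adjusted p 0.0523 to 0.153).

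The other group S genes did not pass. bZIP53 (AT3G62420), an activator of proline and asparagine metabolism genes, had changes of 0.25 (95% interval -0.08 to 0.58) and 0.25 (95% interval -0.07 to 0.58). bZIP44 (AT1G75390) had 0.20 (95% interval -0.07 to 0.46) and 0.24 (95% interval -0.03 to 0.51). With DEX the arrays of neither gene overlapped, as for 15.2% of features in this direction. The highest root DEX and lowest root DEX+CHX arrays read 10.140 and 10.141 for bZIP53, and 6.28 and 6.34 for bZIP44. With all arrays set to the same median, bZIP44 passed in both comparisons (changes of 0.37 and 0.45) and bZIP53 with DEX (0.47), so their place relative to the threshold depends on the scaling. bZIP58 (AT1G13600) had changes of -0.04 and -0.12, bZIP42 (AT3G30530) 0.09 and 0.32, bZIP70 (AT5G60830) 0.01 and 0.03, and bZIP75 (AT5G08141) -0.26 and 0.13. Of these, bZIP42 and bZIP75 passed with DEX after quantile normalization (0.69 and 0.43).

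Neither TCP gene nor the NAC gene passed with CHX. TCP15 (AT1G69690), a class I TCP factor that promotes growth and limits endoreduplication, read 4.83, 4.75 and 5.04 in root MS and 4.24, 4.37 and 4.69 in root CHX. The groups did not overlap, which holds for 30.2% of features in this direction, and the change of -0.44 (SE 0.17) had a limma adjusted p of 0.0769. It was -0.37 (SE 0.17, adjusted p = 0.127) with DEX, and passed without DEX only where root CHX replicate 3 was left out (-0.57, adjusted p = 0.0451). TCP1 (AT1G67260), a class II TCP factor known from brassinosteroid synthesis, had a change below 0.01 in size in both comparisons at a signal close to the bottom of the array. NAC014 (AT1G33060), a NAC factor related to those tethered to membranes, read 6.51, 7.01 and 6.72 in root MS and 6.88, 7.19 and 6.91 in root CHX, with changes of 0.24 (95% interval -0.09 to 0.58) and 0.10 (95% interval -0.23 to 0.43).

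A further 8 bZIP genes have a single-gene feature but carry their bZIP number only as a synonym, and so fell outside the rule. Of these 8, 2 rose with CHX in each comparison, where 10.4% and 11.6% of all features rose. EEL (bZIP12), a seed factor of the abscisic acid pathway, rose by 0.96 (SE 0.10, limma adjusted p = 5.96e-05) without and by 0.77 (SE 0.10, adjusted p = 0.000234) with DEX, and AT4G38900 (bZIP29) rose by 0.79 (SE 0.13, adjusted p = 0.00103) and by 0.70 (SE 0.13, adjusted p = 0.00173). The other 6, AT1G06070, AT2G12900, AT2G13150, AT2G21230, AT2G40620 and the flowering factor FD, did not pass in either comparison.

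Heat shock factors themselves were not analysed here, but 6 of the 19 genes on a list of their known targets had a single-gene feature. With CHX 0 of the 6 rose. AT5G48570 fell in both comparisons, by 0.39 (SE 0.13, limma adjusted p = 0.0462) and by 0.44 (SE 0.13, adjusted p = 0.0227). AT1G53540, a small heat shock protein, was lower with CHX where DEX was present, by 0.48 (SE 0.10, limma adjusted p = 0.00418). Its signal was near the dim end of the array, 2.58 to 2.67 in root DEX and 2.13 to 2.14 in root DEX+CHX, below the array medians. Without DEX its means were 2.20 in root MS and 2.27 in root CHX.

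The comparisons of DEX with its controls ask which transcripts changed once TMO5-GR was activated. In root tips with or without CHX and in sorted J0571 cells, 0 of the 20 members passed. Over all features, limma called 0% with DEX alone, 0% with DEX and CHX, and 0.0338% (13 features) in J0571 cells, where 0.0312% were higher and 0.0026% lower. At an unadjusted p under 0.05 there were 0 members in each of the 3 comparisons, where 6.17%, 3.1% and 5.83% of features had such a p. The median change of the members was 0.03 in root DEX, 0.05 in root DEX+CHX and 0.02 in J0571 DEX, against medians over all features of 0.00 in size in each. Arrays did not overlap for 0 members in the higher and 1 in the lower direction with DEX alone (4.68% and 4.58% of features). With CHX these counts were 1 and 0 (4.56% and 4.98%), and in J0571 cells 2 and 1 (5.79% and 6.03%). The alternative settings, which included leaving out each array, also gave 0 members in each of the 3 comparisons.

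**Figure D3:**
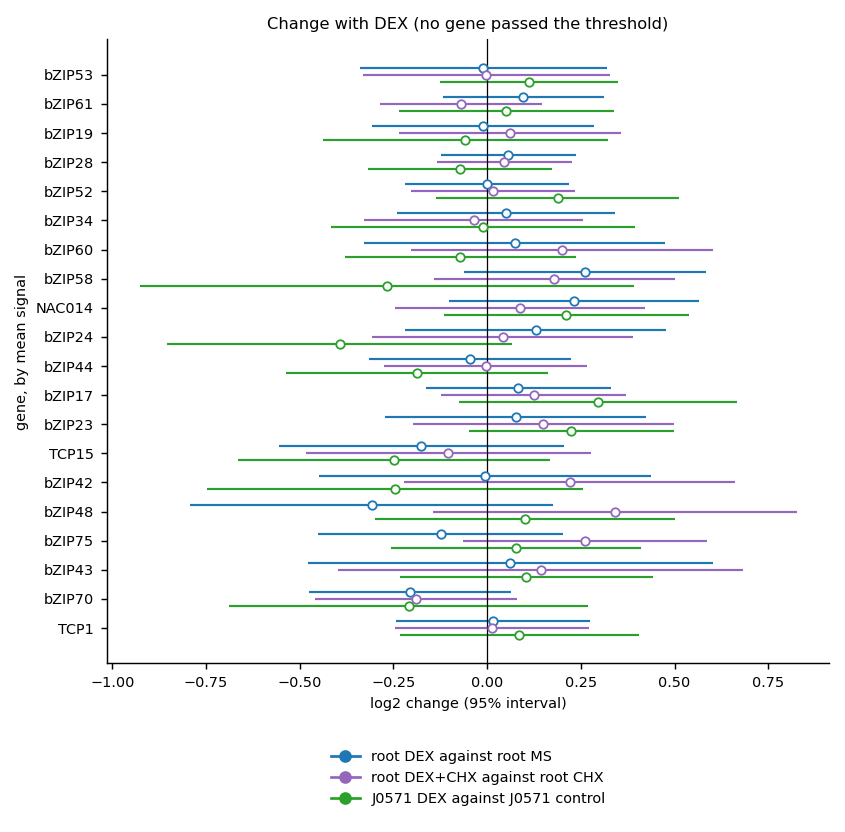
Log2 change with DEX (x axis) for each gene in root tips without CHX, in root tips with CHX and in sorted J0571 cells, with 95% intervals from limma; genes are ordered by mean signal from the top. Every interval includes 0, and they span -0.79 to 0.60, -0.48 to 0.83 and -0.93 to 0.67.

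These intervals bound the change in signal that could have been missed. For root DEX against root MS all 20 intervals lay between -0.79 and 0.60 on the log2 scale, for root DEX+CHX against root CHX between -0.48 and 0.83, and for J0571 DEX against J0571 control between -0.93 and 0.67. A doubling or halving of the signal of any single member therefore lay outside its 95% interval in all 3 comparisons. For the 6 members below the array median on every array, background contributes most to the signal. Their intervals therefore do not bound the change of the transcript. These are intervals per gene, not adjusted for the number of genes.

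By p, the first members for DEX alone were bZIP58 at 0.26 (SE 0.15, limma adjusted p = 0.863), bZIP70 at -0.21 (SE 0.12), NAC014 at 0.23 (SE 0.15), bZIP48 at -0.31 (SE 0.22) and TCP15 at -0.18 (SE 0.17). The arrays of bZIP48 did not overlap (3.56, 3.63 and 3.72 in root MS, and 3.51, 3.44 and 3.03 in root DEX). With CHX in both groups they were bZIP75 at 0.26 (SE 0.15, adjusted p = 1.00), bZIP70 at -0.19 (SE 0.12), bZIP48 at 0.34 (SE 0.22), bZIP58 at 0.18 (SE 0.15) and bZIP17 at 0.12 (SE 0.11). The interaction of DEX and CHX, a test of whether CHX altered the DEX response, gave 0 members and 0% of features in limma, with 0 members and 4.38% of features at an unadjusted p under 0.05. Its first members were bZIP48 at 0.65 (SE 0.31), bZIP75 at 0.39 (SE 0.21), bZIP61 at -0.17 (SE 0.14), bZIP42 at 0.23 (SE 0.28) and NAC014 at -0.14 (SE 0.21), each with an adjusted p of 0.999.

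In J0571 cells the first member by p was bZIP24. It read 5.82, 5.83 and 6.14 in J0571 control and 5.16, 5.71 and 5.73 in J0571 DEX, a difference of -0.39 (SE 0.19, limma adjusted p = 0.862). The arrays did not overlap, and without J0571 DEX replicate 1 the difference was -0.21. bZIP23 read 5.14, 5.42 and 5.25 against 5.47, 5.51 and 5.52, a difference of 0.22 (SE 0.11, adjusted p = 0.867), and bZIP17 6.63, 7.03 and 6.63 against 6.90, 7.10 and 7.17, a difference of 0.30 (SE 0.15). NAC014 (0.21, SE 0.14) and TCP15 (-0.25, SE 0.17) followed. Without J0571 control replicate 3 the number of members past the threshold was again 0. The difference between the J0571 and the root DEX response passed for 0 members and for 0.0521% of features, 0.0443% higher and 0.00781% lower. By p it was led by bZIP24 at -0.52 (SE 0.25, adjusted p = 0.803), bZIP58 at -0.53 (SE 0.30), bZIP48 at 0.41 (SE 0.29), bZIP52 at 0.19 (SE 0.15) and bZIP17 at 0.21 (SE 0.18). At an unadjusted p under 0.05 there were 0 members and 6.24% of features.

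Sorted J0571 cells without DEX were set against whole root tips without DEX to show where these transcripts stood in the other material. The plants' background (C24 or Col-0), the construct, the time on medium, the protoplasting and the sorting changed together here and cannot be told apart. Of the 20 members 7 were higher and 6 lower in J0571 control (limma over all 18 arrays), where 26.5% of features were higher, 22.4% lower and 48.9% called in all. An unadjusted p under 0.05 was found for 13 members, against 54.5% of features, and arrays did not overlap for 8 members in the higher and 7 in the lower direction (28.9% and 24% of features). In all 65% of the members were called, to be read against the 48.9% of all features. Without J0571 control replicate 3, the array that stood apart, the same 13 calls were made. Setting the arrays to equal medians moved the median over all features from 0.05 to 0.30 and ended the calls of bZIP19 (-0.23, adjusted p = 0.227) and bZIP24 (-0.32, adjusted p = 0.139), so these 2 directions are weak.

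**Figure D4:**
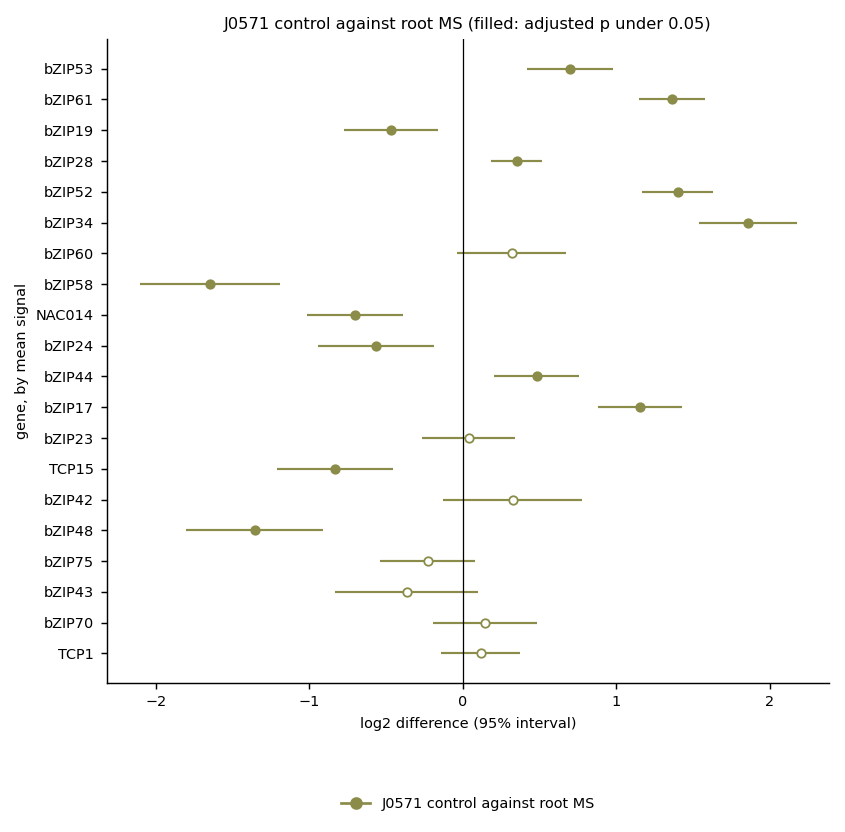
Log2 difference between J0571 control and root MS (x axis) for each gene, ordered by mean signal from the top, with 95% intervals from limma; filled points passed an adjusted p of 0.05. bZIP34 lies highest at 1.86 and bZIP58 lowest at -1.65.

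The group E genes were both higher in J0571 cells, as were 30.2% of the named genes. bZIP34 read 8.30, 8.65 and 8.77 in J0571 control against 6.88, 6.58 and 6.68 in root MS, a difference of 1.86 (SE 0.15, limma adjusted p = 6.85e-08) or 3.63-fold. bZIP61 read 11.04, 11.001 and 10.75 against 9.62, 9.70 and 9.39, a difference of 1.36 (SE 0.10, adjusted p = 2.72e-08). bZIP52 followed the same direction, with 8.45, 8.55 and 8.42 against 6.94, 7.15 and 7.13 (1.40, SE 0.11, adjusted p = 5.35e-08). For these 3 genes all J0571 arrays, those with DEX included, were above all 12 root arrays.

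Of the ER stress factors, bZIP17 was higher in J0571 control by 1.15 (SE 0.13, limma adjusted p = 2.37e-06) and bZIP28 by 0.35 (SE 0.08, adjusted p = 0.00168). bZIP60 read 7.24, 7.06 and 7.07 against 6.43, 7.16 and 6.83, a difference of 0.32 (SE 0.17, adjusted p = 0.129) with overlapping arrays. It passed with equal array medians (0.56, adjusted p = 0.00688) or without root MS replicate 2 (0.50, adjusted p = 0.0206). All 3 listed target genes with a feature were higher, ATERDJ3B by 1.53 (SE 0.10), CRT1b by 0.92 (SE 0.09) and BIP1 by 0.87 (SE 0.26). The summed signal of the 3, as log2, was 11.14 to 11.21 in J0571 control and 9.97 to 10.22 in root MS, and it mainly follows CRT1b. The 6 heat shock genes with a feature summed to 8.85 to 9.10 in J0571 control and to 7.06 to 7.38 in root MS. These sums mainly follow AT5G48570 and, in J0571 control, also AT1G07400. Of the 6 genes 5 were higher, AT1G07400, a small heat shock protein, by 3.74 (SE 0.22). In this comparison 26.5% of all features and 30.2% of the named genes were higher. The part of these stress genes in the members' differences was not tested.

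The energy pair was higher as well, bZIP53 by 0.70 (SE 0.13, limma adjusted p = 0.000362) and bZIP44 by 0.48 (SE 0.13, adjusted p = 0.00623). Other group S genes went down. bZIP58 read 5.45, 5.70 and 6.01 in J0571 control against 7.45, 7.09 and 7.57 in root MS, lower by 1.65 log2 (difference -1.65, SE 0.21, adjusted p = 1.24e-05). bZIP48, dim in both materials, differed by -1.36 (SE 0.21, adjusted p = 6.33e-05), from 3.56, 3.63 and 3.72 to 2.08, 2.30 and 2.45. Group S thus held differences in both directions, from -1.65 to 0.70.

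TCP15 was lower in J0571 control, at 3.79, 4.03 and 4.30 against 4.83, 4.75 and 5.04 (difference -0.84, SE 0.18, limma adjusted p = 0.00108), and its J0571 values were below the array medians. NAC014 was lower too, at 6.15, 6.06 and 5.94 against 6.51, 7.01 and 6.72 (difference -0.70, SE 0.15, adjusted p = 0.000902). The zinc factor bZIP19 differed by -0.47 (SE 0.14, adjusted p = 0.0138) and bZIP24 by -0.57 (SE 0.18, adjusted p = 0.0145), while bZIP23 stood at 0.04 (95% interval -0.26 to 0.34). The remaining members, bZIP42 (0.33), bZIP43 (-0.37), bZIP70 (0.15), bZIP75 (-0.23) and TCP1 (0.12), did not pass, although bZIP42 passed with equal array medians (adjusted p = 0.0351) or quantile normalization (0.0453) and TCP1 with equal medians (0.0169).

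The comparison of J0571 control with root MS shares no array with that of root DEX+CHX with root DEX, so their calls were set side by side. Both spread estimates still use the root arrays, since the J0571 comparison was fitted over all 18 arrays. Of the 9 members higher with CHX and the 7 higher in J0571 cells, 5 were the same: bZIP17, bZIP28, bZIP34, bZIP52 and bZIP61, or 5 of 9 and 5 of 7. Among the named genes, 36.6% of those higher with CHX were also higher in J0571 cells, and 18.4% of those higher in J0571 cells were also higher with CHX. Over all features these shares were 37.1% and 16.2%. The members' overlap starts from higher shares, since 45% of them were higher with CHX and 35% in J0571 cells, against 15.2% and 30.2% of the named genes. The shares of the named genes are therefore no direct measure for it. A link between both differences was not tested. bZIP24 and bZIP48 were higher with CHX and lower in J0571 cells, as were 26.7% of the named genes higher with CHX. bZIP19 was lower in both, as were 27.5% of the named genes lower with CHX. The CHX call of bZIP48 was lost without any 1 of the 6 arrays compared, and its change without DEX was -0.01. The J0571 calls of bZIP24 and bZIP19 were lost with equal array medians (limma adjusted p = 0.139 and 0.227). bZIP60, which changed most with CHX, was not called in J0571 cells in the deposited scaling.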

How the data were processed

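The log2 signals of the 18 arrays are those the authors deposited, made with RMA per the submitters' processing notes. The RMA version, the genome build and the set of arrays RMA was run on were not given in the sources used here. Arrays were grouped by their titles. The platform's annotation names 17481 of 38408 features, 16722 of them for 1 gene and 759 for several, and all 20 members matched a locus of TAIR10.1 by Entrez ID. Each member had 1 feature, so the rule of the highest mean made no choice.

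The deposited log2 values were tested as given with limma 3.58.1 in R 4.3.3: 1 mean per group, moderated variances, two-sided p-values, adjusted by Benjamini-Hochberg across the whole array and called at a threshold of 0.05. The 12 root arrays were fitted together, the 6 J0571 arrays separately, and comparisons between experiments over all 18. Intervals are 95% intervals from the moderated test. For arrays, their number limits the precision. The fits were tested on simulated data.

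Alternatives were quantile normalization, equal array medians, leaving out the lowest 25% of features, trend and robust options, array weights, a replicate block, identical features once, all 18 arrays in 1 fit, single-gene features only, the lowest-mean feature per gene, and leaving out each array. Recounts without dim members and with bZIP genes known by synonym were chosen after seeing the data. Named for the CHX comparisons were the 3 largest increases and 2 largest decreases per family among called members, for the DEX comparisons the 5 of smallest p, for J0571 control the 2 largest differences each way, and role groups; the rest were added so that every member is accounted for. Members and lists were chosen with earlier results of these data known, and bZIP groups S, E, F and I are textbook classes added afterwards. Replicate numbers did not visibly pair the root arrays: deviations correlated at -0.24 to 0.20 for same-numbered arrays and at -0.33 to 0.30 for others. In the J0571 arrays these ranges were 0.02 to 0.25 and -0.23 to 0.12, and 3 same-numbered pairs cannot decide whether those arrays were paired. No sequence is shown because none was used here.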

Additional observations from a re-analysis of the deposited data

How the results depend on the processing

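No count of called members changed by more than 1.5 times under any alternative. The count was 9 in the deposited values for root CHX against root MS and 8 to 11 over the alternatives and recounts, 10 and 8 to 12 for root DEX+CHX against root DEX, and 13 and 11 to 18 for J0571 control against root MS. The upper ends for root CHX against root MS and for J0571 control against root MS came from the recount with added genes. The 5 DEX, interaction and difference comparisons gave 0 throughout. Leaving out 1 array gave 8 to 9, 9 to 9 and 11 to 14. Of 32 single calls, 28 passed in every alternative. The exceptions were bZIP43 and bZIP48 with CHX, given above, and bZIP19 and bZIP24 in J0571 control against root MS. bZIP24 was lost with quantile normalization (adjusted p = 0.0515), equal array medians, or without root MS replicate 3 (0.0796), J0571 control replicate 1 (0.0506) or J0571 control replicate 2 (0.0507), and bZIP19 with equal medians or without J0571 control replicate 1 (0.0605). bZIP48 was also lost with trend and robust options (0.0535) or array weights (0.0631). The cause was not tested. With the replicate block the counts were 9, 10 and 13, and it changed no call. Restricted to the 14 members above the array median on at least 1 array, the counts were 8, 8 and 12; with the 8 bZIP genes known by synonym, 11, 12 and 18 of 28. Signal over background limits the 6 of 20 members that lay below the array median throughout.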
